A study of Rattus norvegicus with 10 samples.

Results

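Mitochondrial ribosomal protein genes were described in aged and young rat calf muscle. Every gene symbol of the array table that began with Mrpl or Mrps followed by a digit was taken, and the brightest of its probe sets, the groups of array probes that stand for 1 transcript, represented the gene. This gave 68 of 19069 named genes, 40 with Mrpl and 28 with Mrps symbols, measured by 82 of 43686 probe sets. The rule used names only and no measured difference, but it was set with earlier results of these data known. RefSeq lists 78 current protein-coding symbols of this form in the rat, and 67 of them were among the 68. The exception was Mrps36, whose current symbol is Kgd4 and whose product is now tied to the 2-oxoglutarate dehydrogenase complex.

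The mitoribosome translates the few messenger RNAs made from mitochondrial DNA, which encode core subunits of the respiratory chain and of ATP synthase. Its ribosomal RNAs are mitochondrial, but all of its proteins are encoded in the nucleus, made in the cytosol and imported. Many descend from bacterial ribosomal proteins, and others are found only in mitochondrial ribosomes, where they form much of the outer shell and anchor the particle to the inner membrane. Skeletal muscle, with its large demand for ATP, depends on this supply.

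The lateral part of the left gastrocnemius, a mixed-fibre calf muscle, was profiled in 5 aged and 5 young rats, all males of the Sprague-Dawley stock, which is outbred, and each animal had its own array. Aged rats were listed as 24 months old and were 28 months old at necropsy, and young rats were listed as 6 months old and were 7 months old at necropsy. No rat carried a transgene or received a treatment according to the labels, and the study used the aged animals to model sarcopenia, in which muscle mass and strength decline with age. Each value is the linear intensity of a probe set, and each fold change is a ratio of geometric means.

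Aged arrays had median intensities of 13.46 to 13.74, against 13.79 to 13.99 for young arrays. Muscle fibre markers, such as creatine kinase Ckm and the fast myosin Myh4, were among the bright probe sets in all animals: the mean shift of 8 such markers from the young mean lay between -0.02 and 0.09 on the log2 scale in aged rats and between -0.02 and 0.03 in young rats. Of 7 macrophage markers 3 were higher in aged rats (Cd68, Csf1r and Emr1) and none was lower, where 13.8% of all named genes were higher and 8.69% lower. The mean shift of these 7 lay between 0.12 and 1.10 in aged rats, highest in aged replicate 1, and between -0.58 and 0.28 in young rats. Markers of other cell types moved both ways (Col3a1 rose, Col1a2 and Tagln fell) or did not pass, and are given with the processing. No marker was listed at 0, and the part of macrophages in the results below was not tested. In whole muscle, fewer cells of a type and less RNA per cell cannot be told apart. Aged replicate 1 stood apart from the other aged animals for the mitochondrial genes, and aged replicates 4 and 5 were marked as replacements. Counts for the family and for the comparison lists are therefore also given without them, in fits that have fewer animals. Aged replicate 1 was singled out by its values in these data, so a stronger change without it is no separate support.

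Mitochondrial ribosomal protein genes were lower more often than higher in aged muscle, by small amounts. Of the 68 genes, 17 fell and 3 rose at an adjusted p under 0.05 (limma with Benjamini-Hochberg adjustment over all probe sets), and 48 did not pass. Those that fell made up 25% of the genes, where 8.69% of all named genes fell, and those that rose made up 4.41%, where 13.8% of all named genes rose. In either direction 29.4% passed, against 22.4% of all named genes. All named genes include many dim ones. In a fit of only the probe sets brighter than the median, 33.8% of 13027 named genes passed, 12.8% lower and 21.0% higher. Of the 66 family genes in that fit, 18 fell and 3 rose. Against these brighter genes the family did not pass more often, and its excess of falls was smaller. The median log2 fold change was -0.13, where that of all named genes was -0.01, and 49 genes (72.1%) had a fold change below 0. Among the 17 that fell, the fold ranged from 1.18 to 1.58 with a median of 1.28, and 65 of the 68 genes differed by less than 1.5-fold in either direction. All aged animals lay below all young animals in 7 genes and above them in 3, together 14.7% of the genes, where 17.3% of all named genes had groups that did not overlap (6.68% below and 10.6% above). The median stayed below 0, between -0.20 and -0.10, in every alternative that was run. Under median centring of the arrays 8 genes fell and 4 rose, while 1353 of all named genes fell and 2933 rose, against 1658 and 2622 without it.

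**Figure D1:**
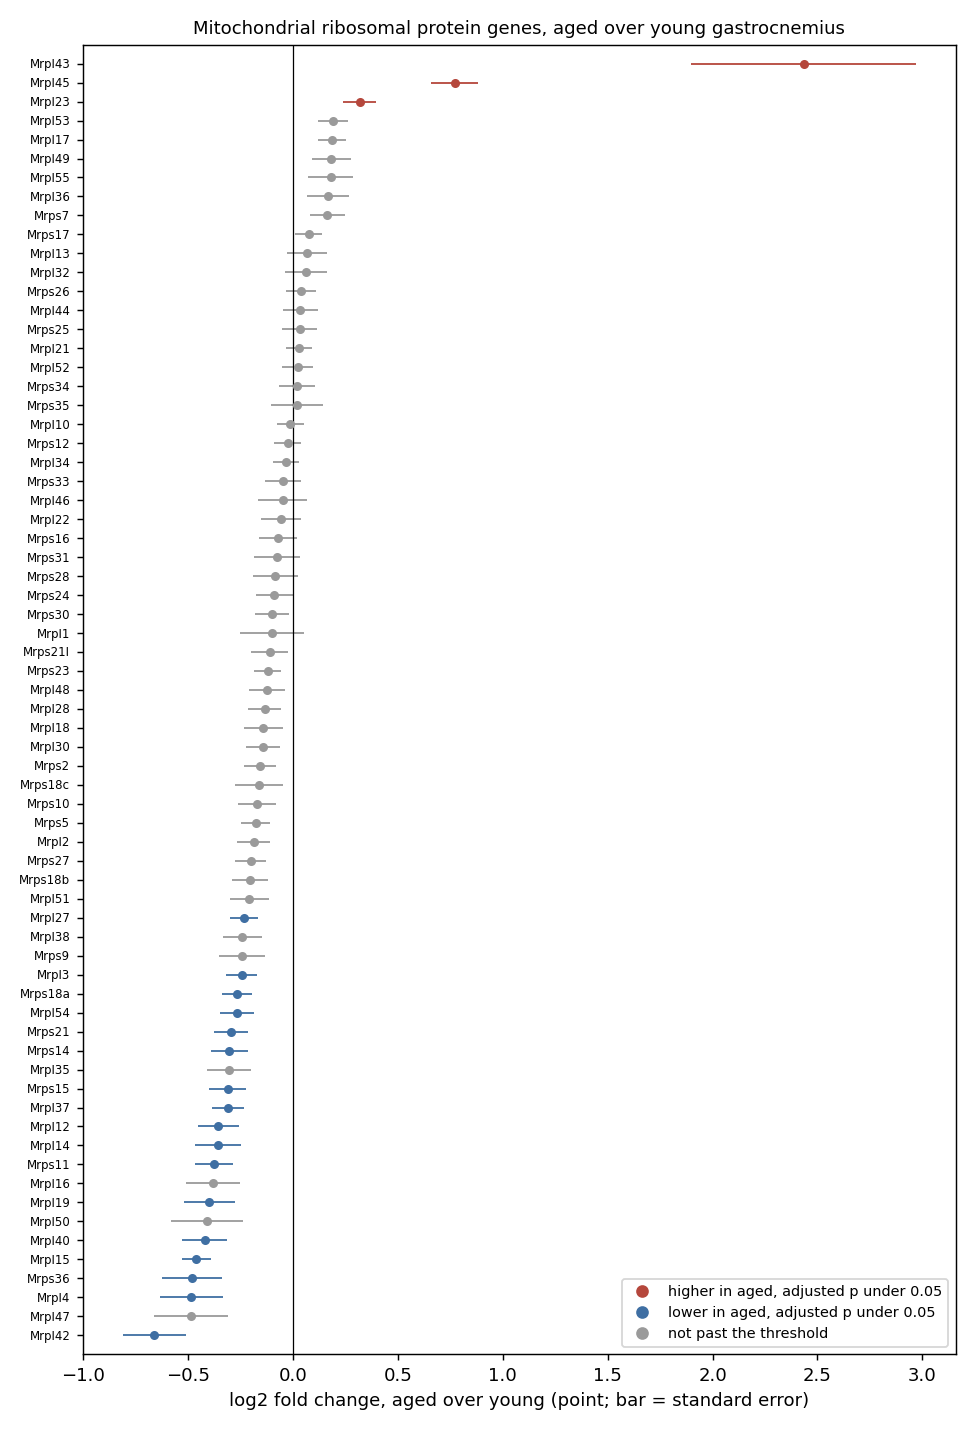
Log2 fold change, aged over young, of the 68 mitochondrial ribosomal protein genes (points, one gene per line; bars, limma standard error; colours, genes higher or lower at an adjusted p under 0.05). The 17 genes that fell lie between -0.66 and -0.23, and Mrpl43 lies far to the right of the rest at 2.43 with the widest bar.

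How many genes fell depended on single animals. Without aged replicate 1, 25 genes fell and all 17 were among them. That animal was the highest of the aged rats in 42 of the 68 genes, so more falls without it could be foreseen. Without aged replicate 2, 4 fell (Mrpl15, Mrpl37, Mrpl42 and Mrps11). The count was 10 without aged replicate 3, 7 without aged replicate 4 and 8 without aged replicate 5. Without young replicates 1, 2, 3, 4 or 5 it was 10, 10, 6, 5 and 5. Each of these fits has 1 animal fewer, and the count over all named genes moved as well. It was 1658 (8.69%) in the fit of all arrays and 1976 (10.4%) without aged replicate 1. Without any other single animal it was 1259 to 1554 (6.60% to 8.15%). The share of all named genes was 6.71% without aged replicate 2, and 6.75% and 6.72% without young replicates 4 and 5. In those fits, with 4 or 5 of the 68 genes falling, the family was near the share of all named genes. Without both replacement arrays, aged replicates 4 and 5, 4 of the 68 genes fell (Mrpl15, Mrpl42, Mrps15 and Mrps21). That was near the share of all named genes that fell in this fit (1056, or 5.54%). The count of genes that rose was 6 without aged replicate 4, when Mrpl49, Mrpl53 and Mrpl55 also passed, and 3 in the fits without any other single animal. Of 19 alternative settings, all kept Mrpl15 and Mrpl42 among the genes that fell and Mrpl23 and Mrpl45 among those that rose, and 18 kept Mrpl37 and Mrps11 among those that fell. No passing gene changed the sign of its fold change in any of them.

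Promoters were examined because 17 genes moved in the same direction. RefSeq's promoter table for GRCr8, with 250 bases before and 50 bases after each annotated start, held 54 of the 68 genes. Mrpl15 and Mrpl43 were not among them. Motifs of factors known to act on nuclear genes for mitochondrial proteins were searched on both strands. Below are 3 genes that fell (Mrpl42, Mrpl37 and Mrps18a), 1 that rose (Mrpl45) and 1 that did not pass (Mrpl32), each 5′ to 3′ along the gene's strand. The 3 that fell are not typical: of 15 genes that fell and had a promoter, only these 3 hold the YY1 motif. Promoters with that motif from genes that did not pass are not printed. Capitals mark every match to a searched motif: the YY1 motif AAGATGGCG in Mrpl42, Mrpl37 and Mrps18a, the NRF1 core TGCGCA in Mrps18a, Mrpl45 and Mrpl32, the longer NRF1 motif GCGCATGCG in Mrpl32, and the TATA box TATAAA in Mrpl42. The regions are chr7:32028473-32028772 on the minus strand for Mrpl42, chr5:127074918-127075217 on the minus strand for Mrpl37, chr9:22367331-22367630 on the minus strand for Mrps18a, chr10:82804789-82805088 on the plus strand for Mrpl45 and chr17:55260401-55260700 on the plus strand for Mrpl32.
Mrpl42: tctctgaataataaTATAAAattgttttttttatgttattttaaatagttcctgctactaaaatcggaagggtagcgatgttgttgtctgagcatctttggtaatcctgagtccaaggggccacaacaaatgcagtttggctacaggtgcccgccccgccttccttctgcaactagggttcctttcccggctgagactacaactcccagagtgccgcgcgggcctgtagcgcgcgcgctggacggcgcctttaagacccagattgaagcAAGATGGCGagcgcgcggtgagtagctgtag
Mrpl37: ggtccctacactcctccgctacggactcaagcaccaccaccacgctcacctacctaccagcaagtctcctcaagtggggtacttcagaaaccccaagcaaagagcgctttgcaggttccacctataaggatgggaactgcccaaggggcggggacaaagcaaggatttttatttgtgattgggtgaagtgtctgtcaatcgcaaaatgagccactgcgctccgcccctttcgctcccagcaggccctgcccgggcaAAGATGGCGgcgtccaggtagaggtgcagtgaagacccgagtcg
Mrps18a: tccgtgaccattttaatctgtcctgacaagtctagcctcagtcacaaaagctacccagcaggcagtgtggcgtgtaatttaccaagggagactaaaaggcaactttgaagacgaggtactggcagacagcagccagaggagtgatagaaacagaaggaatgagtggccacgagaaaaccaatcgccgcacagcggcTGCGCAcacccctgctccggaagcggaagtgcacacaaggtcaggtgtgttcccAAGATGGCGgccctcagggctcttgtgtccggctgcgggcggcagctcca
Mrpl45: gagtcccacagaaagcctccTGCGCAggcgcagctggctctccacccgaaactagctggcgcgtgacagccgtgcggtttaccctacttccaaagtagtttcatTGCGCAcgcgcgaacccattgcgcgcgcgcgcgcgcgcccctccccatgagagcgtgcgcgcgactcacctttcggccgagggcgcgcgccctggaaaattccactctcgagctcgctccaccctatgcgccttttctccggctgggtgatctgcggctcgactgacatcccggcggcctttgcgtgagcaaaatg
Mrpl32: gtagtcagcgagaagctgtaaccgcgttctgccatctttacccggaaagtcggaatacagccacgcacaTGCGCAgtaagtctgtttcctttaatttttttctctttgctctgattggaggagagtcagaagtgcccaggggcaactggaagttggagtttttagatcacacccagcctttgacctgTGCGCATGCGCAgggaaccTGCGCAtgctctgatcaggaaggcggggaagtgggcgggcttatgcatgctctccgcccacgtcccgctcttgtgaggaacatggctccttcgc

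The YY1 motif was present in 9 of the 54 promoters (16.7%), against 1.73% of the 33469 promoters in the table. Its 9 matches began between 17 bases before and 30 bases after the annotated start, with a median of 19 bases after it. The motif contains ATG, so a match can also hold a start codon. Of the 9 genes, Mrpl37, Mrpl42 and Mrps18a fell and the other 6 (Mrpl36, Mrpl46, Mrpl50, Mrps10, Mrps27 and Mrps30) did not pass. The NRF1 motif GCGCATGCG was present in 5 promoters (9.26%, against 1.52% of all), those of Mrpl17, Mrpl22, Mrpl32, Mrpl44 and Mrps18b, none of which passed in either direction. All 5 also hold the core TGCGCA, which was present in 13 promoters (24.1%, against 7.24% of all). Of those 13 genes Mrps18a fell, Mrpl23 and Mrpl45 rose, and the rest did not pass. The GABPA motif CCGGAAGT was present in 8 promoters (14.8%, against 3.81%), of which those of Mrpl3 and Mrpl27 belong to genes that fell. The E-box CACGTG was present in 11.1% (6.42% of all) and TATAAA in 13.0% (14.2% of all). The motif TCAAGGTCA, bound by oestrogen-related receptors, was present in 0 of the 54, against 0.433% of all. The 33469 promoters include those of non-coding genes. Over the 21851 promoters of protein-coding genes the shares were 2.07% for the YY1 motif, 1.93% for the NRF1 motif and 8.74% for its core. They were 4.77% for the GABPA motif, 7.02% for the E-box, 13.0% for the TATA box and 0.366% for the oestrogen-related receptor motif. Median GC content was 55.8%, against 55% over promoters of protein-coding genes. These counts describe letters in a window and not binding.

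Among proteins of the large subunit with a bacterial counterpart, 7 of 24 genes fell and 1 rose, with a median log2 fold change of -0.14. Of all named genes 8.69% fell and 13.8% rose, and these shares stand beside the count of every class below. The classes were not tested against each other. Mrpl15 changed with the smallest adjusted p among the genes that fell. Its intensity was 1441, 1374, 1255, 1251 and 1233 in aged replicates 1 to 5, and 1813, 1681, 1755, 1911 and 1856 in young replicates 1 to 5. Every aged animal lay below every young animal, and the log2 fold change was -0.46 ± 0.07 (limma standard error, 1.38-fold lower, adjusted p = 0.000774). Mrpl4, whose bacterial counterpart lines the exit tunnel, had 1066, 774, 557, 819 and 651 in aged rats and 1153, 1156, 904, 1179 and 926 in young rats. Aged replicate 1 lay among the young animals and the other 4 aged animals below them all, and the fall was the largest among those of this class that passed (-0.48 ± 0.15, adjusted p = 0.046).

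Mrpl19 had 587, 379, 557, 406 and 499 in aged rats, against 586, 592, 690.4, 592 and 704 in young rats (-0.40 ± 0.12, adjusted p = 0.041). Only aged replicate 1 reached the young range. Mrpl14 had 700.3, 459.8, 489, 492 and 549.9 in aged rats, against 628, 712, 775, 629 and 674 in young rats (-0.36 ± 0.11, adjusted p = 0.0439). Mrpl12, the stalk protein that contacts translation factors, had 540.5, 382, 419, 384 and 363 in aged rats, against 529.5, 503, 528, 537 and 547 in young rats (-0.36 ± 0.10, adjusted p = 0.0262). In both genes aged replicate 1 lay within the young range and the other 4 aged animals lay below it. The remaining pair, Mrpl3 and Mrpl27, have bacterial counterparts at or near the peptidyl transferase centre, where peptide bonds form. Mrpl3 had 1816, 1438, 1613, 1565 and 1455 in aged rats and 1841, 1926, 1873, 1786 and 1888 in young rats (-0.24 ± 0.07, adjusted p = 0.0401), with aged replicate 1 again inside the young range. Mrpl27 had 2515, 2337, 2375, 2099 and 2372 in aged rats and 2785, 2608, 2727, 2879 and 2739 in young rats (-0.23 ± 0.07, adjusted p = 0.0306), with no overlap. Mrpl4 and Mrpl19 kept their calls in 8 of the 19 alternatives, Mrpl27 in 8, Mrpl12 in 11, and Mrpl14 and Mrpl3 in 6.

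Among large-subunit proteins found only in mitochondrial ribosomes, 4 of 16 genes fell and 2 rose, with a median of -0.11. Mrpl42 showed the largest fall of all 68 genes and was the 1 gene that fell by at least 1.5-fold. It had 52.4, 30.9, 33.6, 29.5 and 44.1 in aged rats and 50.7, 67.3, 54.0, 56.9 and 66.7 in young rats. Aged replicate 1 lay inside the young range and the other 4 aged animals below it, with a log2 fold change of -0.66 ± 0.15 (1.58-fold lower, adjusted p = 0.00952). Without aged replicate 1, the highest aged animal in this gene, the change was necessarily larger (-0.78 ± 0.13, adjusted p = 0.00074).

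Mrpl40 had 342, 228, 255, 237 and 235 in aged rats, against 329, 310.4, 332, 372 and 379.6 in young rats (-0.42 ± 0.11, adjusted p = 0.0189), and aged replicate 1 alone overlapped the young rats. Mrpl37 had 1528, 1189.8, 1245, 1271 and 1365 in aged rats, against 1547, 1581, 1624, 1673 and 1735 in young rats (-0.31 ± 0.08, adjusted p = 0.0152). Mrpl54, the brightest probe set of the family, had 3662, 2924, 3227, 3212 and 3555 in aged rats, against 3696, 3676, 4114, 4108 and 4336 in young rats (-0.27 ± 0.08, adjusted p = 0.0387). In Mrpl37 and Mrpl54 all aged animals lay below all young animals, with aged replicate 1 just under the lowest young value. The calls held in 15 of 19 alternatives for Mrpl40, 18 for Mrpl37 and 10 for Mrpl54.

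Small-subunit proteins with a bacterial counterpart accounted for 4 of the genes that fell, out of 14, with a median of -0.17 and none higher. Mrps11 had 379, 279, 321, 279 and 306 in aged rats and 389, 382, 390.3, 416 and 439.6 in young rats. The groups did not overlap, and the log2 fold change was -0.38 ± 0.09 (1.30-fold lower, adjusted p = 0.0117). Mrps15 had 112, 102, 116, 96.3 and 133 in aged rats, against 131, 135, 134, 154 and 136 in young rats (-0.31 ± 0.09, adjusted p = 0.0312), with aged replicate 5 inside the young range. Mrps14 had 1132, 990.5, 951, 792 and 1004 in aged rats, against 1218, 1125, 1159.8, 1184 and 1285 in young rats (-0.30 ± 0.09, adjusted p = 0.0357), and aged replicate 1 alone lay above the lowest young value. Mrps21 had 30.1, 24.8, 23.7, 28.8 and 30.4 in aged rats, against 32.3, 32.2, 36.1, 33.6 and 34.0 in young rats (-0.29 ± 0.08, adjusted p = 0.0291), without overlap. Calls held in 11 of 19 alternatives for Mrps15, 9 for Mrps14 and 12 for Mrps21. None of the 8 small-subunit genes found only in mitochondrial ribosomes passed in either direction (limma), and their median was -0.01. Of all named genes 22.4% passed, and 8 genes are too few to tell this class from that share.

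Another 5 genes were not put in a class by origin, and 2 of them fell. Mrps18a, one of 3 genes related to a single bacterial small-subunit protein, had 930.5, 785, 816, 779 and 745 in aged rats, against 942, 1006, 1008, 961 and 951 in young rats (-0.27 ± 0.07, adjusted p = 0.0221), without overlap. Of its relatives, Mrps18b had -0.20 ± 0.09 (adjusted p = 0.137) and Mrps18c had -0.16 ± 0.12 (adjusted p = 0.405), and neither passed. Mrps36 had 132, 70.4, 106, 77.7 and 88.7 in aged rats, against 117, 123, 136, 130.2 and 139.9 in young rats (-0.48 ± 0.14, adjusted p = 0.0367). Aged replicate 1 lay inside the young range and the rest below it. The calls held in 13 of 19 alternatives for Mrps18a and 10 for Mrps36.

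The 3 genes that rose all encode large-subunit proteins. Mrpl45, a mitochondria-specific protein at the tunnel exit that helps to hold the ribosome at the inner membrane, had 1532, 1366.5, 1600.3, 1009.7 and 1468 in aged rats and 778, 788, 888, 808 and 780.0 in young rats. Every aged animal lay above every young animal, aged replicate 4 least so, and the log2 fold change was 0.77 ± 0.11 (1.71-fold higher, adjusted p = 0.000593). Mrpl23, whose bacterial counterpart surrounds the tunnel exit, had 1105, 1274, 1165, 1019.6 and 1306 in aged rats and 933, 859.6, 925, 1001 and 978 in young rats. Its groups did not overlap either, with a change of 0.32 ± 0.08 (1.25-fold higher, adjusted p = 0.0171). Both probe sets lay well above the array medians.

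Mrpl43, a mitochondria-specific protein, had the largest change of the family and either a high or a low level among the aged animals. Its intensity was 62.8, 515, 512, 507 and 955 in aged replicates 1 to 5 and 68.1, 68.2, 83.7, 55.0 and 81.1 in young replicates 1 to 5. Aged replicate 1 lay inside the young range, and the other 4 aged animals lay at 507 or above, without any intermediate value. The low values were still above the array medians of 13.46 to 13.99, so the probe set was not shown to be off in any animal. The log2 fold change was 2.43 ± 0.53 (5.40-fold higher, adjusted p = 0.0077). Without aged replicate 1, the aged animal that differed, it was necessarily larger (3.08 ± 0.18, 8.48-fold higher, adjusted p = 4.47e-07). Without the replacement arrays, aged replicates 4 and 5, it was 1.85 and did not pass (adjusted p = 0.0545). A single probe set carried this symbol. In GRCr8, Mrpl43 lies on chromosome 1 and overlaps Twnk, the mitochondrial DNA helicase gene. Twnk, listed as Peo1, fell and had 197, 183, 195, 196 and 174 in aged rats and 221, 224, 221, 213 and 231 in young rats (-0.23 ± 0.06, adjusted p = 0.0233), without the gap seen for Mrpl43. Sema4g, the neighbour at the other end, had 17.5, 17.5, 15.7, 16.8 and 13.2 in aged rats and 17.5, 17.5, 17.1, 18.9 and 17.9 in young rats and did not pass (-0.15 ± 0.08, adjusted p = 0.285).

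**Figure D2:**
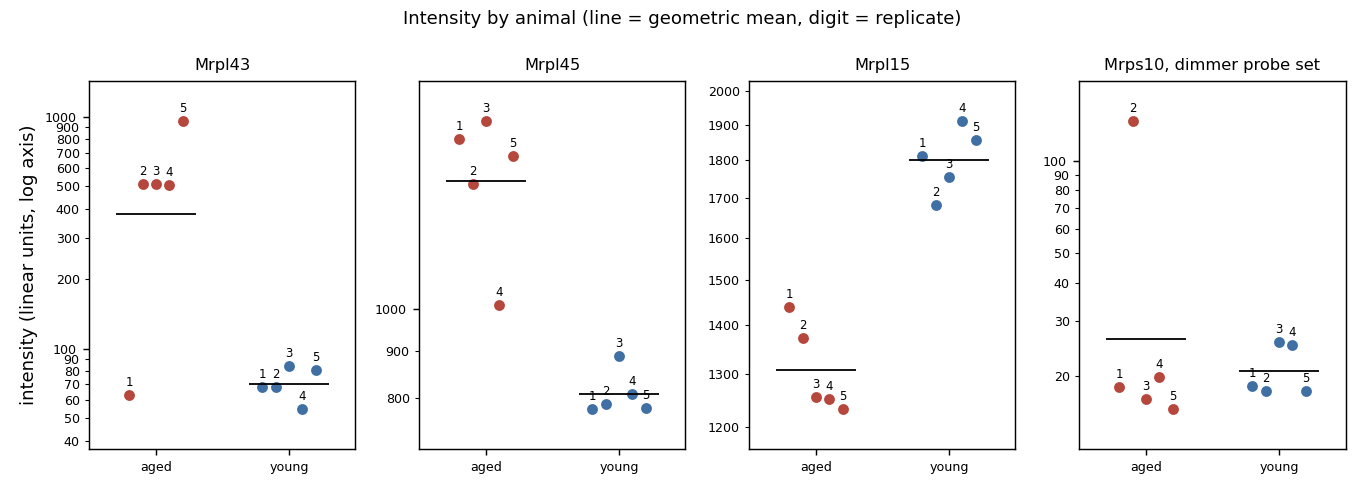
Intensity per animal on log axes for Mrpl43, Mrpl45, Mrpl15 and the dimmer probe set of Mrps10 (points, animals with their replicate digit; lines, geometric means). In Mrpl43, 4 aged animals lie at 507 or above and aged replicate 1 at 62.8 lies with the young animals, and in Mrps10 aged replicate 2 stands alone at 134.

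A single-animal probe set was sought among all 82, as one in which the highest or lowest array lay at least 1 log2 unit from the next and by more than the range of the other 9. The dimmer of the Mrps10 probe sets was the 1 found. It had 18.3, 134, 16.8, 19.8 and 15.6 in aged rats and 18.5, 17.8, 25.7, 25.1 and 17.9 in young rats, so aged replicate 2 alone was high. The brighter Mrps10 probe set had 21.8, 30.9, 25.2, 26.7 and 26.4 in aged rats and 29.2, 31.9, 29.5, 26.1 and 30.2 in young rats. In it aged replicate 2 was the highest aged animal but within the young range, and the gene did not pass (-0.17 ± 0.09, adjusted p = 0.248).

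A second probe set was available for 14 of the 68 genes. Of these 14, 3 fell, 1 rose and 10 did not pass, and no gene had probe sets that passed in opposite directions. In Mrps15 both fell, with -0.42 ± 0.08 for the dimmer one (adjusted p = 0.00222). In Mrpl47 the dimmer probe set fell (-0.69 ± 0.16, adjusted p = 0.0109), while the brighter one had -0.49 ± 0.17 and did not pass (adjusted p = 0.0835). In Mrps2 the dimmer one fell (-0.27 ± 0.08, adjusted p = 0.028) and the brighter one had -0.16 ± 0.08 (adjusted p = 0.206). Mrpl17 had a dimmer probe set that rose (0.54 ± 0.14, adjusted p = 0.016). Its brighter one had 1550.2, 1534, 1459, 1417 and 1666 in aged rats and 1403, 1386, 1311, 1283 and 1315 in young rats, which did not overlap, but it did not pass (0.19 ± 0.07, adjusted p = 0.0783). Processed pseudogenes are a further source of near-identical sequence: RefSeq names 40 after 23 of the 68 genes, Mrpl15, Mrpl42 and Mrpl45 included, and cross-hybridisation was not tested.

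The 48 genes that did not pass had log2 fold changes between -0.49 and 0.19, of which 32 were below 0. Without adjustment, 33 of the 68 genes (48.5%) had p under 0.05 in either direction, against 36.5% of all named genes. Of these 33, 28 were lower and 5 were higher, where 16.3% of all named genes were lower and 20.2% higher at that threshold. Mrpl50 had 743, 501, 465, 306 and 529.9 in aged rats and 657, 599.5, 695, 668 and 633 in young rats, with aged replicate 1 above all young animals and the others below them (-0.41 ± 0.17, adjusted p = 0.137). Mrpl16 had the same arrangement with aged replicate 1 inside the young range (-0.38 ± 0.13, adjusted p = 0.0633). Both fell without aged replicate 1 (adjusted p = 0.0118 and 0.00406). That fit leaves out their highest aged animal, so it is no separate support for a fall. Mrps18b was among the 5 genes with the brightest probe sets, together with Mrpl54, Mrpl27, Mrpl3 and Mrpl15, and the other 4 fell. Mrpl30 and Mrps28 were dimmer on average than the median probe set of any array (lowest median 3.75 on the log2 scale) and were not shown to be above background.

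The aged animals differed in how much of the family lay low. Aged replicate 4 lay below all young animals in 49 of the 68 genes, aged replicate 2 in 42, aged replicate 3 in 39, aged replicate 5 in 32 and aged replicate 1 in 12. Aged replicate 1 lay above all young animals in 26 genes and was the highest of the aged rats in 42, among them 15 of the 17 that fell. The median shift from the young mean was 0.04, -0.18, -0.15, -0.28 and -0.08 on the log2 scale in aged replicates 1 to 5, and between -0.05 and 0.04 in the young rats. Of the 17 genes that fell, aged replicates 2, 3 and 4 lay below every young rat in all 17, aged replicate 5 in 16 and aged replicate 1 in 8.

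**Figure D3:**
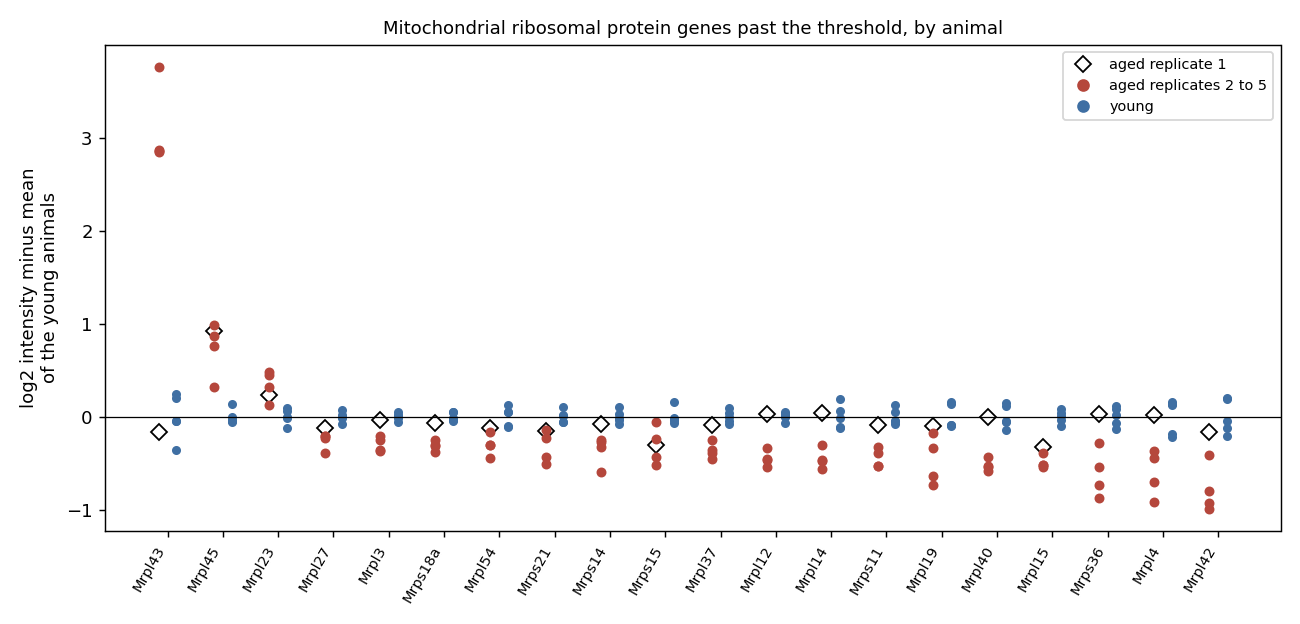
Log2 intensity of the 20 genes past the threshold, as the difference from the mean of the young animals (open diamonds, aged replicate 1; red points, aged replicates 2 to 5; blue points, young animals). Aged replicate 1 is the highest aged animal in 15 of the 17 genes that fell and lies with the young animals in Mrpl43.

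Other genes of mitochondrial translation gave a mixed picture with more falls than rises. Of 14 measured translation factors and messenger RNA activators, 6 fell and 1 rose, with a median of -0.29, where 8.69% of all named genes fell and 13.8% rose. The count was 9 of the 14 without aged replicate 1, where 10.4% of all named genes fell, and without the replacement arrays 3 fell, where 5.54% did. The same shares of all named genes apply to every list below. Those that rose made up 15.6% without aged replicate 1 and 10.6% without the replacement arrays. The calls of Guf1 and Qrsl1 were among those lost without the replacement arrays (adjusted p = 0.0544 and 0.124). Guf1, the mitochondrial counterpart of bacterial LepA, had 826, 384, 521, 408 and 548 in aged rats and 825, 836, 850.1, 875 and 831 in young rats (1.63-fold lower, adjusted p = 0.0101). Again aged replicate 1 alone was at the young level. Qrsl1, a subunit of the enzyme that makes glutaminyl-tRNA, had 161, 88.8, 117, 69.8 and 78.5 in aged rats and 170.5, 153, 183, 141 and 154 in young rats (1.63-fold lower, adjusted p = 0.0207). Mtfmt, which formylates the initiator tRNA, had 335, 386, 383, 312 and 429.8 in aged rats and 272, 253, 247, 239 and 217 in young rats (log2 fold change 0.58 ± 0.09, adjusted p = 0.0012). For Mtfmt all aged animals lay above all young animals.

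Of 15 mitochondrial aminoacyl-tRNA synthetases 4 fell and 1 rose, with a median of -0.13. The counts were the same without aged replicate 1, with Fars2 and Yars2 in place of Pars2 and Cars2, and without the replacement arrays 3 fell. Aars2 had 64.6, 54.6, 64.2, 58.8 and 58.3 in aged rats and 82.1, 76.0, 75.3, 77.0 and 93.3 in young rats (1.34-fold lower, adjusted p = 0.00296). Lars2 had 114, 121, 122, 117 and 126 in aged rats and 95.5, 84.7, 84.8, 87.8 and 83.5 in young rats (1.38-fold higher, adjusted p = 0.000465). Neither gene's groups overlapped, and in both aged replicate 1 lay with the other aged animals. Cars2, listed as RGD1311612, was lower (-0.27 ± 0.08, adjusted p = 0.0483, and 0.0761 without aged replicate 1). Of 24 assembly and ribosomal RNA modification factors, 3 fell and 2 rose, with a median of -0.04. These counts were not far from the shares of all named genes, of which 8.69% fell and 13.8% rose. Leaving out aged replicate 1 gave 6 of the 24 that fell, where 10.4% of all named genes did. Leaving out the replacement arrays gave 1 that fell and 1 that rose, where 5.54% and 10.6% did. The largest change among those that passed was in Mpv17l2, a protein tied to large-subunit assembly, with 155, 156, 175, 175 and 182 in aged rats and 115, 114, 129, 115 and 117 in young rats (1.43-fold higher, adjusted p = 0.000462). Ybey, an RNA-processing factor listed as RGD1308722, fell by 0.36 ± 0.11 on the log2 scale (adjusted p = 0.0401, and 0.0636 without the replacement arrays), and Eral1, which chaperones the small-subunit ribosomal RNA, fell by 0.32 ± 0.07 (adjusted p = 0.011).

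None of 6 further mitoribosomal proteins whose symbols have another form passed (limma), with a median of -0.13, and 2 fell without aged replicate 1 (Chchd1 and Ptcd3). The table also held 3 symbols of the family in lower case, which the name rule left out: mrpl11 fell (-0.34 ± 0.07, adjusted p = 0.00663), and mrpl24 (-0.10 ± 0.12, adjusted p = 0.662) and mrpl9 (-0.08 ± 0.06, adjusted p = 0.489) did not pass. With these 3, 18 of 71 genes fell and 3 rose.

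Regulators of nuclear genes for mitochondrial proteins moved both ways, with 2 of 9 lower and 2 higher. Ppargc1a, the coactivator PGC-1 alpha, had 89.8, 52.3, 88.0, 72.2 and 65.6 in aged rats and 111, 189.7, 293, 193 and 201 in young rats (2.61-fold lower, adjusted p = 0.000938). Myc, a transcription factor that acts on many growth genes, had 125, 163, 91.0, 140.1 and 119 in aged rats and 40.1, 45.3, 35.6, 51.9 and 38.6 in young rats (2.99-fold higher, adjusted p = 3.62e-05). In both, all 5 aged animals lay outside the young range, aged replicate 1 included. Ppargc1b also fell (-0.74 ± 0.15, adjusted p = 0.00419) and Pprc1 rose (0.25 ± 0.08, adjusted p = 0.0384), but Pprc1 did not pass without aged replicate 1 (adjusted p = 0.0693). The factors after which the NRF1, GABPA, YY1 and oestrogen-related receptor motifs are named did not pass with all arrays. Factors that bind the E-box were not singled out, and Myc, which rose, is not counted here. Nrf1 had -0.06 ± 0.07 (adjusted p = 0.637) and Gabpa 0.40 ± 0.13 (adjusted p = 0.0605, and 0.0268 without the replacement arrays). Yy1 had 0.12 ± 0.06 (adjusted p = 0.239) and Esrra -0.15 ± 0.11 (adjusted p = 0.407).

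Genes for mitochondrial DNA maintenance and transcription included 2 of 10 that fell and 1 that rose, with a median of 0.04. The count that fell was 3 without aged replicate 1, Tfb2m among them, and 0 without the replacement arrays (limma), with Twnk and Top1mt at adjusted p = 0.0904 and 0.0826. Polg2, the accessory subunit of the mitochondrial DNA polymerase, was 1.49-fold higher (adjusted p = 0.00913), and Top1mt, the mitochondrial topoisomerase, was 1.35-fold lower (adjusted p = 0.0156). Among 11 genes of protein import, by which ribosomal proteins enter the organelle, 3 fell and 1 rose, with a median of -0.13. It was 4 that fell without aged replicate 1 and 1 without the replacement arrays. Within the inner membrane translocase, the paralogues Timm17a and Timm17b changed in opposite directions. Timm17a had 1513, 1122, 1249.7, 885 and 1088 in aged rats and 1595, 1613, 1637, 1712 and 1888 in young rats (1.46-fold lower, adjusted p = 0.00696). Timm17b had 242, 288, 258, 281 and 283 in aged rats and 207, 189.7, 193, 202 and 218 in young rats (1.34-fold higher, adjusted p = 0.00172). The groups of neither gene overlapped.

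The lists nearest to the family in function lay on either side of it. Of 36 complex I genes, the complex with the most mitochondrially encoded subunits, 19 fell and none rose, with a median log2 fold change of -0.33, and 27 fell without aged replicate 1. Without the replacement arrays 10 fell and Ndufs4 rose. Ndufs1, a core subunit, had 3019.8, 1789.7, 2411, 1827 and 1953 in aged rats and 3343, 3417, 3828, 3533 and 3383 in young rats (1.62-fold lower, adjusted p = 0.00259). Of 79 cytosolic ribosomal protein genes 65 rose and 2 fell, with a median of 0.43, led by Rpl3 (log2 fold change 2.06, adjusted p = 2.17e-05). Without aged replicate 1, 66 rose and 2 fell, and without the replacement arrays 54 rose and 2 fell. The mean shift in aged replicates 1 to 5 was 0.06, -0.15, -0.10, -0.25 and -0.02 for the mitochondrial ribosomal proteins, -0.05, -0.53, -0.31, -0.44 and -0.31 for complex I and 0.22, 0.50, 0.40, 0.42 and 0.55 for the cytosolic ribosomal proteins. Aged replicate 1 was the aged animal nearest to the young mean in the complex I and cytosolic lists and the 1 aged animal above it in the mitochondrial list. The lists were not tested against each other.

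**Figure D4:**
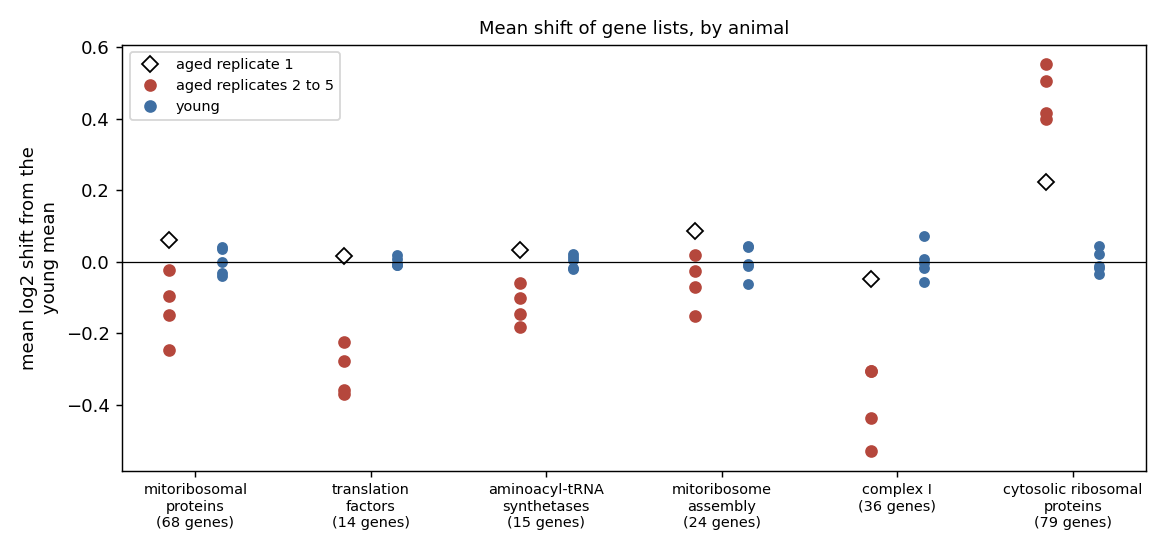
Mean log2 shift from the young mean per animal, for the 68 mitochondrial ribosomal protein genes and 5 comparison lists (open diamonds, aged replicate 1; red points, aged replicates 2 to 5; blue points, young animals). The cytosolic ribosomal proteins lie above the young animals in all aged rats, between 0.22 and 0.55, and complex I lies lowest, down to -0.53.

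Many of the family's genes start near the start of a neighbour on the other strand. A protein-coding gene on the other strand started within 1000 bases in 16 of the 54 genes with a RefSeq promoter (29.6%), against 6.86% of 21851 protein-coding promoters. The partner was measured for 14 of the 16, and in none did both genes pass. Of the family's genes with a measured partner only 3 passed, so these counts could hardly show joint changes. Mrps11 and Mrpl46 are such a pair, counted once from each side, with starts 234 bases apart: Mrps11 fell, and Mrpl46 had -0.05 ± 0.12 (adjusted p = 0.836). The partner of Mrpl47 is Ndufb5, a complex I subunit, which fell (-0.50, adjusted p = 0.00779). The brighter Mrpl47 probe set had nearly the same value but did not pass (-0.49 ± 0.17, adjusted p = 0.0835). Its dimmer one fell, and the brighter one passed without aged replicate 1 (adjusted p = 0.0139), its highest aged animal. Other pairs differed: Mrpl51 had -0.21 and did not pass, while its partner Ncapd2 rose (0.53, adjusted p = 0.0129). Mrpl40 fell, while its partner Hira had 0.01 (adjusted p = 0.941). Of the 14 measured partners 2 fell and 3 rose, where 8.69% and 13.8% of all named genes did. Whether a pair shares a promoter region was not tested. Mrpl32, whose promoter is printed above, did not pass (0.06 ± 0.10), while its partner Psma2, a proteasome subunit, rose (0.66, adjusted p = 0.0149).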

How the data were processed

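Intensities of 10 arrays, 5 aged and 5 young with 1 per animal, were used as the authors deposited them, on a linear scale. The submitters' processing notes name RMA, which equalizes arrays and compresses differences of dim probe sets; its version, the array design and its genome build are not given in the sources used here. A deposited table with symbols served for tests, and a deposited value table with replicate numbers served for values per animal. Intensities were log2-transformed and fitted by lmFit and eBayes of limma 3.58.1, run in R 4.3.3, with age as the single term and two-sided tests. Adjustment was by Benjamini-Hochberg across 43686 probe sets at a threshold of 0.05, and the fit was tested on simulated data. Standard errors are limma's.

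Same-numbered aged and young arrays did not deviate together, so numbers were not used as pairs. The number of arrays limits precision, and no depth or detection value came with the intensities. Members, lists and tests were chosen with earlier results of these data known. Named genes were the up to 12 largest rises and falls, genes against the main direction, the 5 brightest, single-animal probe sets and up to 3 per comparison list; others were named after their values were seen. Lists of markers for endothelial, adipocyte, lymphocyte, Schwann and red cells had no gene past the threshold. Of 6 fibroblast markers Col3a1 rose and Col1a2 fell, of 2 smooth muscle markers Tagln fell, and of 8 muscle fibre markers Mb rose. Without aged replicate 1, Aif1 (macrophage) and S100b (Schwann) were among the markers that also rose and Col3a1 no longer passed. Without the replacement arrays Col3a1 and Mb no longer passed, and Col1a1 and Cdh5 (endothelial) fell. Motif searches and promoter coordinates used RefSeq tables of GRCr8. Alternatives were other scalings, an intensity filter, a pseudocount of 16, other variance models, each array left out and the replacement arrays left out.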

Additional observations from a re-analysis of the deposited data

Results flagged for a closer look

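Each of 136 groups of 5 animals was checked for an animal far from the other 4, and chance flags about 1 in 20 groups. Among the brightest probe sets 9 were found. In aged rats, aged replicate 1 was far above the others in Mrpl40 (341.76, others 228.39 to 255.07) and Mrps24 (1479.66, others 1093.33 to 1159.02) and far below them in Mrpl43 (62.82, others 506.74 to 955.29). Aged replicate 4 was far below the others in Mrpl49 (442.05, others 568.06 to 609.82) and Mrps34 (352.89, others 440.3 to 472.6). In young rats, replicate 3 was high in Mrpl45 (887.83, others 778.29 to 807.81), replicate 4 was high in Mrps15 (153.7, others 131.45 to 135.86) and Mrps9 (966.3, others 839.08 to 872.94), and replicate 2 was low in Mrps7 (241.96, others 290.92 to 308.6). The dimmer probe set of Mrps10 was high in aged replicate 2 (134.28, others 15.61 to 19.78).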

How the results depend on the processing

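The count of genes that fell, 17, was 8 under median centring, 4 without the 2 replacement arrays and 10 with a replicate block; the fits without arrays hold fewer animals, and for the others the cause was not tested. Of all named genes, 7.10% fell under median centring, 5.54% without the replacement arrays and 6.97% with the block, against 8.69% in the reported fit. Leaving out 1 animal at a time gave 4 to 25 genes that fell and 3 to 6 that rose, while 6.60% to 10.4% of all named genes fell. Quantile normalization gave 25 that fell, the 17 among them, and the other settings gave 13 to 19. The median over all named genes moved by 0.03 or less under any scaling. With a mean over the probe sets of each symbol, Mrps10 turned to 0.0897 (adjusted p = 0.868), since that mean includes the probe set with 1 high animal. A tally covered the 20 ribosomal protein genes that the naming rule picked, under 19 alternatives. In it 268 values kept direction and side of the threshold, and 110 kept direction but no longer passed. Another 1 newly passed (Mrps18b, without aged replicate 1) and 1 reversed. These 20 are not the 20 genes that passed. They include Mrps10 and Mrps18b, which did not pass, and leave out Mrps18a and Mrps21, which fell. Calls of Mrps18a and Mrps21 held in 13 and 12 of 19 alternatives. Other family members, such as Mrpl16, Mrpl47 and Mrpl50, are not in this tally either. The numbers of the replicates do not pair the animals (correlation of deviations between -0.12 and 0.03), so the replicate block, a hint only, says nothing of a weaker effect. No detection values came with the arrays, so differences of dim probe sets have no bound. Counting lower-case symbols was chosen after seeing the data.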

Other observations

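Over all 43685 probe sets with replicate numbers, 12 shared the arrangement seen for Mrpl43, with 1 aged animal inside the young range and the other 4 aged animals at least 1 log2 unit outside it on the same side, when that animal was aged replicate 1: 9 lay above and 3 below. Mrpl43 was the 1 mitochondrial ribosomal protein gene among the 12. The same count was 0, 0, 1 and 0 when the animal inside the young range was aged replicate 2, 3, 4 or 5.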
